A study of Homo sapiens with 38 samples.

Results

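The solute carriers are the largest superfamily of human membrane transporters, and 141 of them were followed here as naive human pluripotent cells left the naive state in different media. They are the rows of the count table whose symbol follows the family pattern (SLC, a family number, the letter A and a member number) and whose mean over all libraries reached 5 CPM (counts scaled to the library total). The pattern matched 334 of the 57133 symbols in the table, of which 4 had no count in any library. Transporters with other letters in the symbol were not included. The level over all libraries thus chose the members and is given only as a description. Just inside the threshold were SLC47A1 (5.58 CPM), SLC9A8 (5.50 CPM) and SLC48A1 (5.40 CPM), and just outside were SLC17A9 (4.97 CPM), SLC2A13 (4.89 CPM) and SLC1A6 (4.85 CPM).

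The 38 libraries came from Shef6, a human embryonic stem cell line that had been reset to the naive state and adapted to growth without feeder cells on dishes coated with serum. They form 19 groups of 2 libraries from 2 experiments, called Ex1 and Ex2 in the labels. The study calls the replicates technical in some legends and biological in another, so the p-values below measure the spread between libraries, which may be technical. The naive medium, PXGL, holds a MEK inhibitor, the tankyrase inhibitor XAV, a protein kinase C inhibitor and the cytokine LIF, and naive cells were grown on serum coating (2 libraries, Ex1) or on Geltrex (2 of Ex1 and 2 of Ex2). The 2 naive libraries of Ex2 have day 4 in the library name but day 0 in the title and time point, and were taken as day 0. All 6 naive libraries read PXGLY in the library name but PXGL in the title, and the labels do not explain the Y. The paper adds a ROCK inhibitor, the Y of its LY medium, to naive medium after passaging. Whether these naive cultures held it at harvest is not stated, and its part in the differences from naive cells was not tested. All differentiating cells came from these serum-adapted cultures and were plated on Geltrex, in Ex1 in N2B27, a serum-free base without added growth factors (days 2, 3, 4, 6 and 8), in E8 (the same days) or in mTeSR (days 4, 6 and 8), which are primed-state media that supply FGF2 and TGFβ-type signals. In Ex2, all at day 4, the base was N2B27 alone, with XAV, or with Activin A, FGF2 and XAV together (FAX). Comparisons with naive cells used all 6 naive libraries and, in N2B27 at day 4, the 4 libraries of both experiments, whereas media were compared within Ex1 or within Ex2. XAV is thus present in the naive, XAV and FAX cultures and absent from the others.

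Solute carriers move nutrients, ions and metabolites across the plasma membrane and the membranes of organelles. Facilitative glucose carriers, heteromeric and sodium-coupled amino acid carriers and proton-coupled lactate carriers set what a cell can take up and release, whereas the SLC25 family links the cytosol with the mitochondrial matrix. Naive and primed human pluripotent cells are known to differ in metabolism, with primed cells relying more on glycolysis.

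Library totals ran from 3038046 to 5612354 counts (median 4427277), and 3 counts corresponded to 0.535 to 0.987 CPM. The E8 libraries of day 2 had the lowest TMM scaling factors (0.903 and 0.904) of all libraries, and the E8 values of day 2 below come from them. Summed marker levels followed the labels at day 8. The summed level of 8 primed or formative markers was 20.7 to 25.8 CPM in naive libraries and 832 to 1080 CPM at day 8, while 8 naive markers summed to 1130 to 1532 CPM and to 343 to 452 CPM (SPIC and ARGFX then at 3 counts or fewer). Against naive cells, single naive markers went both ways at day 2 in N2B27 and E8 and at day 4 with XAV, some higher and others lower. POU5F1, SOX2 and NANOG together had at least 1323 CPM in every library. Markers of other cells moved with the day and the medium. The 6 hypoblast markers summed to 4.61 to 13.7 CPM in naive cells (SOX17 and FOXA2 at 3 counts or fewer), to 273 and 282 CPM in N2B27 at day 8, to 99.3 and 101 CPM in E8 and to 147 and 161 CPM in mTeSR. The 6 fibroblast markers, a check for feeder cells, went from 1.97 to 4.28 CPM in naive cells to 101 to 183 CPM at day 8, with DCN at 3 counts or fewer in all of these groups, COL3A1 and LUM in naive cells, E8 and mTeSR, and POSTN in naive cells and N2B27. The cultures were grown without feeder cells. In bulk RNA, a change in the share of cells with these markers and a change of RNA level per cell cannot be told apart. The part of cells with these markers in the results was not tested.

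The 141 transporters belong to 40 families, grouped here into 10 classes by the textbook substrates of the family. They comprise 31 mitochondrial carriers, 25 amino acid carriers, 22 metal carriers, 20 carriers of inorganic ions and acid-base equivalents, 14 sugar carriers, 10 vitamin and nucleoside carriers, 8 carriers of lipids and organic ions, 5 monocarboxylate carriers, 5 nucleotide sugar carriers and the acetyl-CoA carrier SLC33A1. Class names do not describe every member: the sugar class holds the iodide carrier SLC5A5 and the multivitamin carrier SLC5A6, and the monocarboxylate class holds the aromatic amino acid carrier SLC16A10. Together, the members took 0.826 to 1.20% of the counts of a library, and all 141 passed the filter that left 16674 genes for testing. The mean over all libraries was 100 CPM or more for 24 of them. The means of 111 members were at or above 5 CPM at every one of the 16 combinations of medium and day, and 13 members were under 5 CPM in naive cells. On the log2(CPM + 1) scale, 30 members ranged over more than 2 units between the 16 means and 41 over less than 1 unit. Of the 40 members with the widest range, 38 are drawn for every library in the heatmap.

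**Figure D1:**
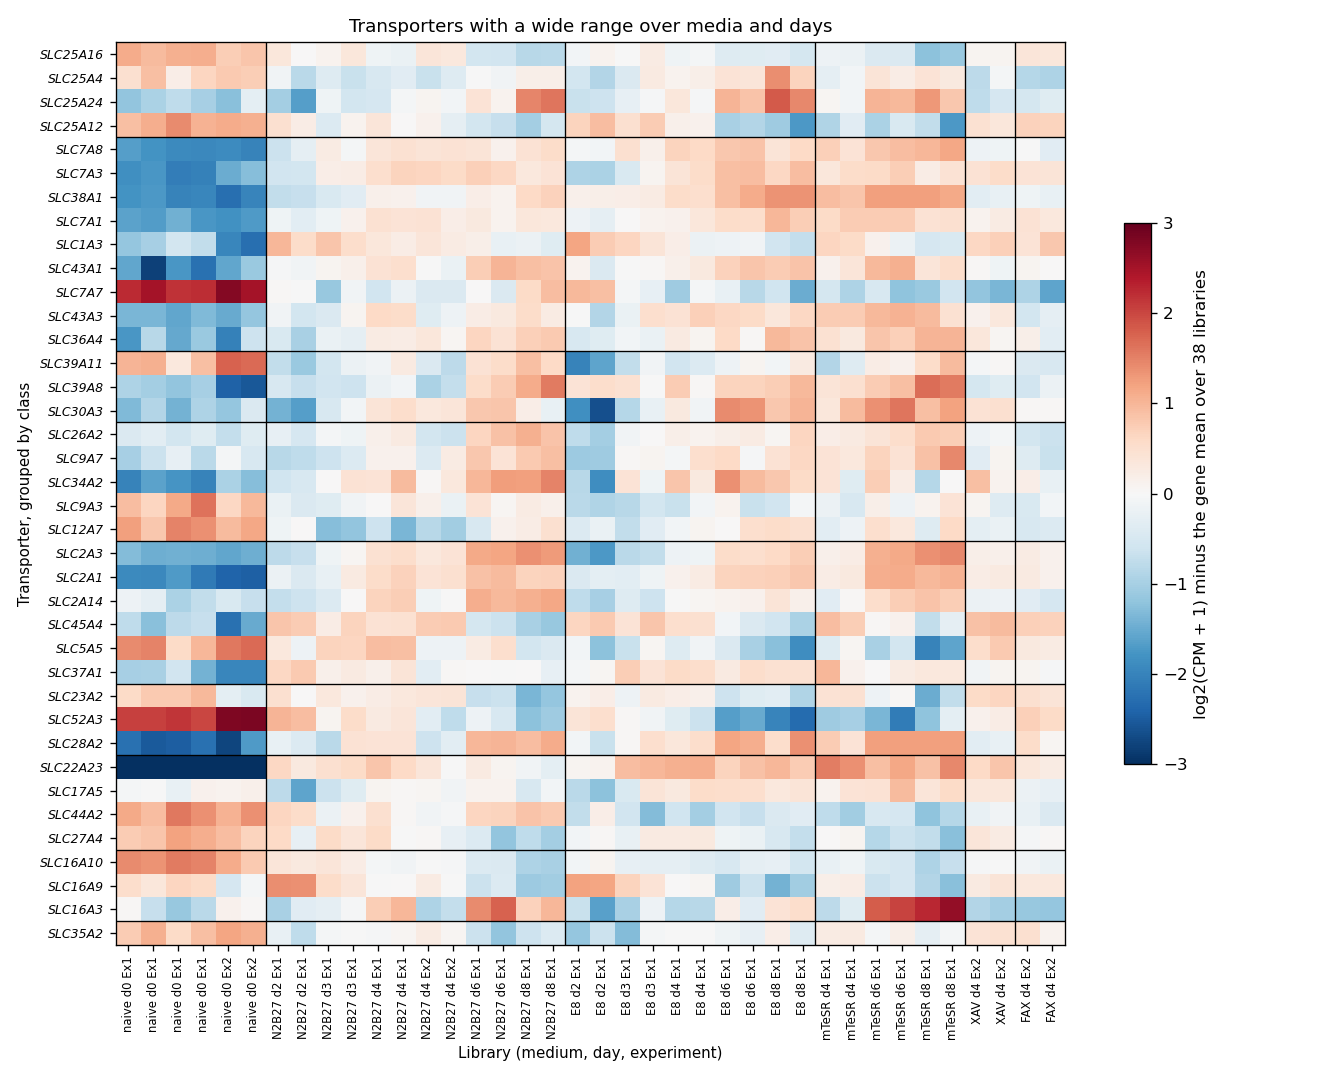
Rows are 38 of the 40 transporters with the widest range over the 16 medium-and-day means, in all 38 libraries (columns, grouped by medium and day), as log2(CPM + 1) minus the gene's mean over the libraries. Replicates of a group lie side by side, and the naive libraries differ from all others in most rows, with SLC22A23 from 0.824 to 2.15 CPM there and from 19.9 to 73.2 CPM elsewhere.

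Exit from the naive state moved transporters in both directions. A gene was called when its adjusted p (edgeR quasi-likelihood test, Benjamini-Hochberg) was under 0.05 and its change was above 2-fold, and errors given with log2 fold changes are standard errors. At day 8, 24 of the 141 transporters rose and 20 fell in N2B27, which is 31.2% of the members beside 23.9% of all genes tested (16.9% higher, 7.03% lower) and 19.4% of the 11427 tested genes with a mean of at least 5 CPM. In E8 at day 8, 23 rose and 30 fell (37.6%, beside 27.5% of all genes, 18.2% higher and 9.24% lower), and in mTeSR 25 rose and 24 fell (34.8%, beside 25.1%, 16.9% higher and 8.2% lower). The median log2 fold change of the members was -0.13 in N2B27, -0.07 in E8 and -0.06 in mTeSR, and that of all genes was -0.03, 0.00 and -0.02. Amino acid carriers had more calls upwards and mitochondrial carriers more calls downwards in each medium at day 8. The membership threshold itself favoured some of these calls. With a naive mean under 5 CPM, 13 members passed it only through libraries after exit, and 12 of them are among the rises in each medium. A further 3 (SLC52A3, SLC9A3 and SLC12A7) passed only through naive libraries, and 2 of them are among the falls. Changes of these members from naive cells are given below as a description. The shares of members called above and the class shares below include these members. The comparisons share the naive libraries, and their counts are therefore not independent.

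Fewer members were called at earlier days. In N2B27, 15 members rose and 11 fell at day 2 (18.4%, beside 16.2% of all genes, 9.86% higher and 6.3% lower) and 18 rose and 15 fell at day 4 (23.4%, beside 18.4%, 12.5% higher and 5.96% lower). In E8 the counts were 18 and 21 at day 2 (27.7%, beside 24.6%, 13.9% higher and 10.7% lower) and 19 and 18 at day 4 (26.2%, beside 20.8%, 13.6% higher and 7.21% lower). With plain library totals, which moved the median of all genes by -0.15 on the log2 scale in this comparison, E8 at day 2 had 16 rises and 28 falls. In mTeSR at day 4, 24 rose and 14 fell (27%, beside 19.8%, 12.8% higher and 6.93% lower), with XAV 20 and 14 (24.1%, beside 17%, 10.5% higher and 6.54% lower) and with FAX 20 and 17 (26.2%, beside 17.1%, 10.3% higher and 6.77% lower). Of the genes with a mean of at least 5 CPM, 13.8%, 14.4% and 19.4% were called in N2B27 at days 2, 4 and 8, 21.4%, 17.1% and 22.7% in E8, 16.5% and 21.2% in mTeSR at days 4 and 8, 14.5% with XAV and 14.8% with FAX.

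**Figure D2:**
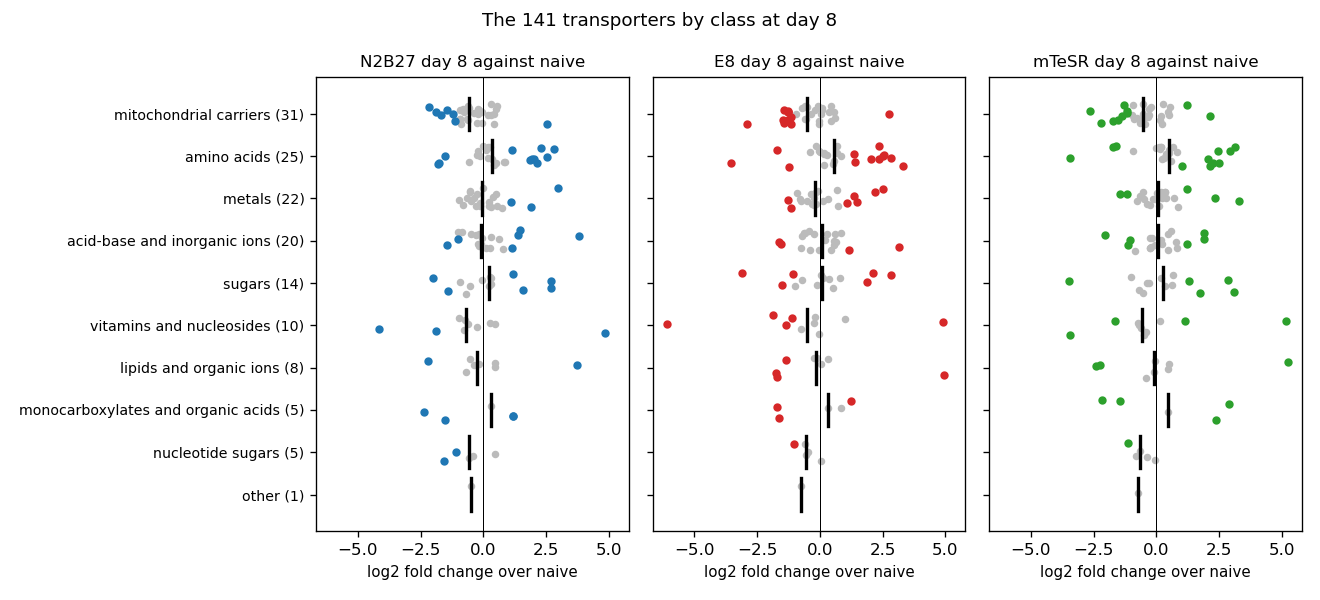
Log2 fold change over naive cells at day 8 (x axis) of each of the 141 transporters by class (y axis, members in parentheses) in N2B27, E8 and mTeSR. Coloured points were called, grey points were not, and black bars are class medians: amino acid carriers have medians of 0.35, 0.57 and 0.51, and mitochondrial carriers of -0.56, -0.50 and -0.52.

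The main glucose carriers rose in every medium. SLC2A1 (GLUT1, the widely expressed glucose carrier, chr1:42925353-42958893 in GENCODE release 44 on GRCh38) had 37.3, 50.5 and 63.3 CPM in the lowest, median and highest of the 6 naive libraries. It was at 183 and 153 CPM in N2B27 and 156 and 171 CPM in E8 at day 2, and reached 334 and 337 CPM in N2B27, 343 and 366 CPM in E8 and 414 and 434 CPM in mTeSR at day 8. No differentiating library overlapped a naive one. The log2 fold change over naive at day 8 was 2.69 ± 0.11 (adjusted p = 5.7e-20) in N2B27, 2.83 ± 0.11 (adjusted p = 1.0e-20) in E8 and 3.08 ± 0.11 (adjusted p = 1.2e-21) in mTeSR.

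SLC2A3 (GLUT3, a high-affinity glucose carrier, chr12:7919230-8019007) also rose in each medium by day 8, and was lower in E8 than in N2B27 throughout. Naive libraries held 219, 233 and 261 CPM (lowest, median and highest), and in N2B27 the level was 372 and 397 CPM at day 2, 881 and 929.6 CPM at day 4 in Ex1 and 1661 and 1545 CPM at day 8 (2.69 ± 0.07 over naive). E8 libraries were still at 237 and 195 CPM at day 2, 1 library within the naive range and 1 under it, and at 977 and 1074 CPM at day 8. E8 and N2B27 did not overlap on days 2, 4, 6 or 8, with log2 differences of E8 from N2B27 of -0.71 ± 0.09 (adjusted p = 1.1e-05), -0.58 ± 0.09 (adjusted p = 6.8e-05), -0.57 ± 0.09 (adjusted p = 3.0e-05) and -0.58 ± 0.09 (adjusted p = 1.8e-05), each under the 2-fold needed for a call. mTeSR reached 1664 and 1753 CPM at day 8. SLC2A14, a near-identical copy, rose at day 8 in N2B27 (1.59) and mTeSR (1.32), and 3′ reads of the pair may have been divided between them by the counting.

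As a class, the 14 sugar carriers summed to 868 ± 43.3 CPM in naive cells (mean ± SD, n = 6) and to 2425 ± 95.7 CPM in N2B27, 1782 ± 119 CPM in E8 and 2604 ± 89.8 CPM in mTeSR at day 8 (n = 2 each). In N2B27, 4 rose and 2 fell (42.9%, beside 23.9% of all genes), with 3 and 3 in E8 (42.9%, beside 27.5%) and 4 and 1 in mTeSR (35.7%, beside 25.1%). SLC2A1 and SLC2A3 made up most of each sum at day 8. SLC37A1, a glucose-6-phosphate carrier, had 1.65, 3.52 and 5.92 CPM in naive cells and 13.3 and 13.2 CPM in E8 (1.88 ± 0.26), a description, since it passed the membership threshold only through libraries after exit. SLC37A4, the endoplasmic glucose-6-phosphate carrier needed for glucose release, fell from 81.4, 93.7 and 126 CPM to 36.7 and 42.6 CPM in N2B27 (-1.40 ± 0.18) and to 29.2 and 42.4 CPM in E8 (-1.49 ± 0.18). The sugar class thus held changes of both signs, with no overlap with the naive libraries at the values given.

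Among amino acid carriers, more rose than fell. At day 8, 8 of 25 rose and 3 fell in N2B27 (44%, beside 23.9% of all genes), 9 and 3 in E8 (48%, beside 27.5%), and 8 and 3 in mTeSR (44%, beside 25.1%), with class medians of 0.35, 0.57 and 0.51, and their summed level went from 1669 ± 79.6 CPM (n = 6) to 2701 ± 32.2, 3199 ± 106 and 3080 ± 41.2 CPM (n = 2 each). SLC38A1 (SNAT1, a sodium-coupled glutamine carrier, chr12:46183063-46270017) had 25.02, 31.1 and 36.8 CPM in naive libraries, 188 and 199.6 CPM in N2B27 at day 8, 319 and 318 CPM in E8 and 289.6 and 271 CPM in mTeSR. Its log2 fold change over naive was 2.53 ± 0.09 (adjusted p = 1.4e-21), 3.32 ± 0.09 (adjusted p = 4.1e-25) and 3.12 ± 0.09 (adjusted p = 2.9e-24). The related SLC38A2 (SNAT2) had 130.0, 204 and 226 CPM in naive cells and 471 and 497 CPM in E8 (1.36 ± 0.13).

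The cationic amino acid carriers SLC7A1 and SLC7A3, which import arginine and lysine, both rose. SLC7A1 went from 21.7, 24.1 and 28.7 CPM to 160.4 and 134 CPM in E8 at day 8 (2.58 ± 0.10), and SLC7A3 from 49.4, 60.8 and 87.03 CPM to 328 and 401 CPM (2.51 ± 0.13). SLC7A8 (LAT2), which exchanges neutral amino acids, rose from 72.8, 77.9 and 93.2 CPM to 583 and 659 CPM in mTeSR (2.93 ± 0.11). No day 8 library of these 3 genes overlapped the naive libraries. The facilitative carrier of branched-chain and aromatic amino acids SLC43A1 (LAT3) had 1.79, 5.15 and 7.96 CPM in naive cells and 35.1 and 33.9 CPM in N2B27 at day 8 (2.83 ± 0.22), a description, since it passed the membership threshold only through libraries after exit. SLC43A3, a purine nucleobase carrier placed in the amino acid class by its family, also rose, from 4.78, 5.54 and 6.59 CPM to 31.8 and 22.3 CPM (2.28 ± 0.24).

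Several well-known amino acid carriers stayed under the 2-fold threshold. SLC7A5 (LAT1), the large neutral amino acid exchanger, had 207, 275 and 326 CPM in naive libraries and 256 and 357 CPM in E8 at day 8 (log2 fold change 0.16 ± 0.15, adjusted p = 0.38), and its heavy chain SLC3A2 had 129.8, 143 and 145 CPM in naive libraries and 267 and 182 CPM in E8 (0.67 ± 0.12, adjusted p = 2.1e-05). SLC1A5 (ASCT2), a glutamine exchanger, had 81.1, 97.9 and 114 CPM in naive libraries and 143 and 150.5 CPM in E8 (0.56 ± 0.13, adjusted p = 6.2e-04). None of the 3 was called in any comparison with naive cells. SLC7A7 (y+LAT1, chr14:22773222-22829820), the light chain that exports cationic amino acids, went the other way. It had 59.4, 68.00 and 88.5 CPM in naive cells, 12.7 and 12.2 CPM in N2B27 and 25.1 and 23.9 CPM in E8 at day 2, and 4.84 and 4.18 CPM with XAV at day 4 (-3.95 ± 0.32). SLC6A8, the creatine carrier, fell from 124, 153 and 199 CPM to 47.2 and 47.9 CPM in N2B27 at day 8 (-1.80 ± 0.20).

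**Figure D3:**
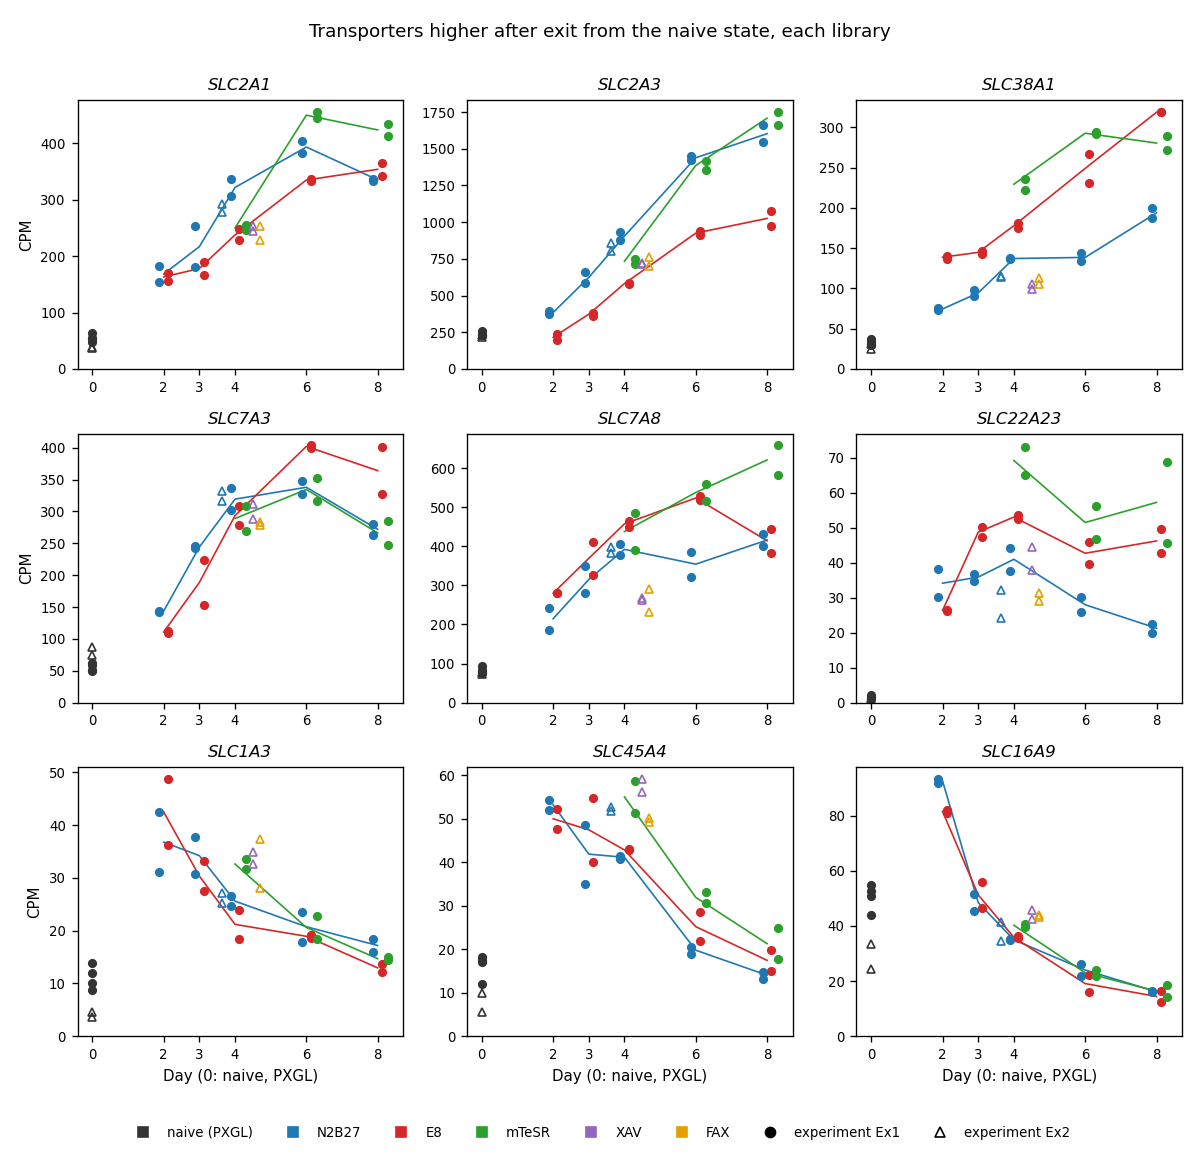
CPM (y axis, from 0) by day (x axis, day 0 is naive) for 9 transporters that were higher after exit, with a point for each library and lines through the Ex1 means of N2B27, E8 and mTeSR; open triangles are Ex2. SLC2A3 in E8 stays below N2B27 from day 2 to day 8, and SLC1A3, SLC45A4 and SLC16A9 peak early and come down by day 8.

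SLC22A23 (chr6:3268962-3457050), of the organic ion carrier family and with no settled substrate, had the largest fitted rise of the 141. It passed the membership threshold only through libraries after exit, so that the rise is a description. Naive libraries held 0.824, 1.43 and 2.15 CPM, and day 2 libraries already 38.04 and 30.2 CPM in N2B27 and 26.1 and 26.6 CPM in E8. The level was highest in mTeSR at day 4 (73.2 and 65.2 CPM, log2 fold change 5.52 ± 0.20). By day 8 it was 22.6 and 19.9 CPM in N2B27, 49.7 and 42.7 CPM in E8 and 45.7 and 68.7 CPM in mTeSR, where both of these media exceeded N2B27 (E8 against N2B27 1.20 ± 0.18, adjusted p = 8.2e-06, mTeSR against N2B27 1.49 ± 0.18, adjusted p = 7.2e-07). Both calls held when any one of the compared libraries was left out.

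A few carriers came up from low naive levels. Those described here passed the membership threshold only through libraries after exit, which favours a rise, and their values are a description. SLC28A2, a concentrative purine nucleoside carrier, had 0 to 4 counts in each naive library (10 in all), and its summed counts at day 8 gave a rate 33.0-fold higher in N2B27 (95% counting interval 17.3 to 70.5), 31.4-fold in E8 (16.5 to 67.2) and 38.5-fold in mTeSR (20.2 to 82.7). Its level was then 11.9 and 13.6 CPM in N2B27, 8.78 and 16.5 CPM in E8 and 14.95 and 14.99 CPM in mTeSR. These intervals cover counting error only, since reads without molecular identifiers are not independent molecules. SLC34A2, a sodium-phosphate carrier, had 0.439, 0.7899 and 1.97 CPM in naive cells and 12.5 and 15.1 CPM in N2B27 at day 8 (3.83 ± 0.36), against 2.18 and 4.81 CPM in mTeSR. SLC39A8 (ZIP8), a zinc and manganese importer, had 0.549, 3.18 and 3.75 CPM in naive cells, 18.2 and 25.5 CPM in N2B27 and 27.7 and 25.5 CPM in mTeSR at day 8 (2.97 ± 0.28 and 3.31 ± 0.28). SLC25A24, a mitochondrial ATP-magnesium and phosphate carrier, rose late, from 3.29, 4.24 and 7.41 CPM through 12.7 and 10.1 CPM at day 6 to 27.1 and 30.1 CPM at day 8 in N2B27 (2.56 ± 0.21).

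Some carriers were higher early than late. SLC16A9, a carnitine and creatine carrier of the monocarboxylate family, had 24.4, 47.4 and 54.9 CPM in naive cells, 93.4 and 91.7 CPM in N2B27 at day 2 (1.11 ± 0.16) and 15.97 and 16.3 CPM at day 8 (-1.51 ± 0.20), so that the same gene rose and then fell. Against the Ex1 naive libraries alone the day 2 change was 0.92, under 2-fold. In E8 it was at 82.1 and 80.9 CPM at day 2 and at 12.3 and 16.5 CPM at day 8. SLC1A3, a glutamate and aspartate carrier, had 3.57, 9.44 and 13.9 CPM in naive cells, 48.7 and 36.3 CPM in E8 at day 2 (2.37 ± 0.23) and 13.6 and 12.3 CPM at day 8, where the libraries again overlapped the naive ones. SLC45A4 had 5.596, 14.5 and 18.2 CPM in naive cells, 54.3 and 52.1 CPM in N2B27 at day 2 (1.99 ± 0.20) and 14.8 and 13.2 CPM at day 8.

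Among the genes that fell, SLC52A3 (chr20:760080-776015), a riboflavin carrier, fell furthest, but passed the membership threshold only through the naive libraries, so that its fall is a description. It had 23.5, 25.1 and 42.3 CPM in naive libraries, 1.597 and 1.92 CPM in N2B27 at day 8, 1.63 and 3.96 CPM in mTeSR and 0.561 and 0.236 CPM in E8, the last being 3 counts and 1 count. The summed naive rate was 69.6 times that of E8 at day 8, with a counting interval of 27.1 to 256.1, and the fitted change in N2B27 was -4.15 ± 0.37. SLC5A5, the sodium-iodide symporter, had 21.2, 39.96 and 46.9 CPM in naive cells and 5.23 and 3.07 CPM in E8 (-3.11 ± 0.38). SLC16A10 (TAT1), an aromatic amino acid carrier, fell from 123, 185 and 209 CPM to 36.95 and 35.3 CPM in N2B27 (-2.36 ± 0.15). Its libraries were already apart from the naive ones at day 2, at 67.1 and 75.02 CPM in E8.

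Of the 20 carriers of inorganic ions and acid-base equivalents, 4 rose and 2 fell in N2B27 at day 8 (30%, beside 23.9% of all genes), 2 and 2 in E8 (20%, beside 27.5%) and 3 and 3 in mTeSR (30%, beside 25.1%). SLC12A7 and SLC9A3 passed the membership threshold only through naive libraries, and their values are a description. The potassium-chloride cotransporter SLC12A7 (KCC4) was low at day 4 in N2B27 (2.85 and 1.31 CPM in Ex1 and 2.33 and 1.88 CPM in Ex2, from 9.32, 12.7 and 15.7 CPM, -2.59 ± 0.24) and stood at 5.93 and 7.29 CPM at day 8. The sodium-potassium-chloride cotransporter SLC12A2 was not called in any comparison with naive cells and had 39.2, 62.5 and 71.5 CPM in naive libraries and 57.8 and 58.96 CPM in E8 at day 8. SLC9A3, a sodium-proton exchanger, had 8.56, 11.04 and 18.4 CPM and 2.55 and 2.36 CPM in E8 at day 2 (-2.11 ± 0.36). SLC44A2 (chr19:10602457-10644557), a choline carrier of the lipid and organic ion class, had 34.4, 43.6 and 54.4 CPM in naive cells and 7.07 and 9.34 CPM in mTeSR at day 8 (-2.42 ± 0.24).

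Among the SLC25 carriers of the inner mitochondrial membrane, more fell than rose. At day 8, 1 of 31 rose and 6 fell in N2B27 (22.6%, beside 23.9% of all genes, of which 7.03% fell), 1 and 10 in E8 (35.5%, beside 27.5%, 9.24% lower), and 2 and 8 in mTeSR (32.3%, beside 25.1%, 8.2% lower), and the class median was -0.56, -0.50 and -0.52 beside medians near 0 for all genes tested. Medians as low or lower were found in the vitamin and nucleoside class (-0.68, -0.50 and -0.57) and the nucleotide sugar class (-0.56, -0.56 and -0.64). The summed level of the 31 mitochondrial carriers was 2950 ± 134 CPM in naive cells (n = 6) and 2321 ± 10.6, 2472 ± 7.13 and 2392 ± 5.10 CPM at day 8 (n = 2 each). SLC25A24, the only rise in N2B27 and in E8, passed the membership threshold only through libraries after exit. SLC25A12, an aspartate-glutamate carrier of the malate-aspartate shuttle, had 13.9, 16.03 and 20.3 CPM in naive cells and at day 8 2.97 and 4.602 CPM in N2B27 (-2.16 ± 0.27), 2.804 and 1.41 CPM in E8 (-2.90 ± 0.29) and 3.81 and 1.41 CPM in mTeSR (-2.64 ± 0.30). SLC25A16, linked to mitochondrial coenzyme A, went from 163, 197 and 211 CPM to 40.8 and 44.1 CPM in mTeSR (-2.20 ± 0.15). No day 8 library of either gene overlapped the naive libraries.

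The phosphate carrier SLC25A3 was called in no comparison with naive cells and had 511, 531 and 566 CPM in naive libraries and 481 and 486 CPM in N2B27 at day 8. In E8 at day 2 it stood apart at 864 and 863 CPM (0.83 ± 0.09, adjusted p = 5.9e-09), in the libraries with the lowest scaling factors. The ADP/ATP carriers share close sequence, and their counts may be divided between copies. SLC25A5 had 325, 407 and 471 CPM in naive libraries, fell to 155 and 159 CPM in E8 at day 2 (-1.23 ± 0.19) and was back at 439 and 331 CPM at day 8. SLC25A6, the only member to which GENCODE gives more than 1 position, had 455, 488 and 701 CPM in naive libraries and 452 and 641 CPM in E8 at day 8, without a call in any comparison with naive cells.

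Metal carriers went both ways in E8 and mTeSR. At day 8, 3 of 22 rose and none fell in N2B27 (13.6%, beside 23.9% of all genes), 5 rose and 2 fell in E8 (31.8%, beside 27.5%), and 3 rose and 2 fell in mTeSR (22.7%, beside 25.1%). SLC30A1, which exports zinc, had 22.4, 45.1 and 64.7 CPM in naive libraries and 75.9 and 72.4 CPM in E8 at day 8 (0.71 ± 0.22, adjusted p = 0.0066, no call). SLC39A14 (ZIP14), a zinc, iron and manganese importer, had 53.7, 58.6 and 73.5 CPM in naive cells and rose to 164 and 149.8 CPM in E8 (1.37 ± 0.12), while N2B27 libraries held 81.7 and 99.9 CPM. SLC39A11, another zinc carrier, was lowest in E8 at day 2 (2.86 and 4.14 CPM, from 18.2, 30.8 and 52.01 CPM, -3.14 ± 0.39) and was at 27.8 and 22.2 CPM in N2B27 at day 8, inside the naive range. The zinc importer SLC39A10 was called in no comparison with naive cells, at 172, 255 and 298 CPM in naive libraries and 211 and 203 CPM in E8 at day 8.

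Of the lactate carriers, SLC16A1 (MCT1) was called in no comparison with naive cells, with 397, 423 and 445 CPM in naive cells and 561 and 614 CPM in mTeSR at day 8 (0.46 ± 0.08, adjusted p = 1.6e-05). SLC16A3 (MCT4, chr17:82217934-82261129), which exports lactate from glycolytic cells, had 7.06, 13.6 and 18.4 CPM in naive cells and rose in mTeSR to 61.8 and 71.4 CPM at day 6 and 84.8 and 109 CPM at day 8 (2.88 ± 0.30). It rose less in N2B27 (27.8 and 34.3 CPM at day 8, 1.18 ± 0.33, adjusted p = 0.0037; 1.04, adjusted p = 0.071 without replicate 2) and in E8 stood at 22.8 and 24.8 CPM. At day 8 the vitamin and nucleoside class had 1 rise and 2 falls among 10 members in N2B27 (30%, beside 23.9% of all genes), 1 and 4 in E8 (50%, beside 27.5%), and 2 and 2 in mTeSR (40%, beside 25.1%). SLC28A2 was among the rises and SLC52A3 among the falls in each medium. Both passed the membership threshold only through the side on which they were high. The ascorbate carrier SLC23A2 was among the falls, from 40.1, 89.4 and 111 CPM to 20.8 and 24.2 CPM in N2B27 (-1.89 ± 0.27). SLC19A1, the reduced folate carrier, had 5.26, 6.67 and 8.79 CPM in naive libraries and 15.8 and 14.99 CPM in mTeSR at day 8 (1.13 ± 0.22, adjusted p = 5.9e-05). Of the 5 nucleotide sugar carriers, none rose at day 8, beside 16.9% of all genes in N2B27, 18.2% in E8 and 16.9% in mTeSR. In the same order, 2, 1 and 1 of them fell, beside 7.03%, 9.24% and 8.2%. SLC35A2, the UDP-galactose carrier, fell from 52.4, 70.2 and 80.6 CPM to 22.4 and 25.9 CPM in N2B27 (-1.57 ± 0.22).

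Promoters of a few of these members are shown because the genes moved furthest. RefSeq (GRCh38.p14) gave promoter windows, from 250 bases before to 50 bases after the start, for 111 of the 141 members, 180 windows in all. The GC box GGGCGG, searched on both strands, was in 63.9% of the 180 member windows (115) and in 45% of the 35116 windows of all genes, and CACGTG in 15% (27) and 7.26%. Members were chosen by level, whereas the windows of all genes were not. No share was computed for genes with a mean of at least 5 CPM, so these shares are no result about transporters. The 4 printed sequences are the 2 with the largest rise and the 2 with the largest fall in E8 at day 8 among members with exactly 1 window. They are written 5′ to 3′ on the strand of the gene, with GC boxes of either orientation and CACGTG in capitals. A match is a description of the sequence and not a bound site.
SLC22A23 (rose, chr6:3324101-3324400, minus strand): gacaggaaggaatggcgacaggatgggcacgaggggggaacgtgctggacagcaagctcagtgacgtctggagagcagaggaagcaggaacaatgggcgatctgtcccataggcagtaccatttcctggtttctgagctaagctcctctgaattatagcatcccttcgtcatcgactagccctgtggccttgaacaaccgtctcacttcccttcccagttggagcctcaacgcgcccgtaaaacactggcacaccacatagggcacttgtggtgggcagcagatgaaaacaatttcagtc
SLC2A1 (rose, chr1:42958819-42959118, minus strand): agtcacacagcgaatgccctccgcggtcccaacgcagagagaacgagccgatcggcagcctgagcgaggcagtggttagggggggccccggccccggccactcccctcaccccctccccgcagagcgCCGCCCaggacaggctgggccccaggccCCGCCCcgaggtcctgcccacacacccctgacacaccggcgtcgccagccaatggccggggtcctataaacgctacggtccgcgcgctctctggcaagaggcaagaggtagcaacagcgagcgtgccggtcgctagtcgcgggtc
SLC5A5 (fell, chr19:17871695-17871994, plus strand): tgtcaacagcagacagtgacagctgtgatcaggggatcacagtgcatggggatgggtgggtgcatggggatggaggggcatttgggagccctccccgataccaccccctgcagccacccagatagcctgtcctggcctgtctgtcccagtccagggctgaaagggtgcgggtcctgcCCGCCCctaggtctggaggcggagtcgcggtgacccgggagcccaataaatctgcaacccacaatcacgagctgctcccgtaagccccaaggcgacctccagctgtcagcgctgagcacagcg
SLC25A12 (fell, chr2:171894195-171894494, minus strand): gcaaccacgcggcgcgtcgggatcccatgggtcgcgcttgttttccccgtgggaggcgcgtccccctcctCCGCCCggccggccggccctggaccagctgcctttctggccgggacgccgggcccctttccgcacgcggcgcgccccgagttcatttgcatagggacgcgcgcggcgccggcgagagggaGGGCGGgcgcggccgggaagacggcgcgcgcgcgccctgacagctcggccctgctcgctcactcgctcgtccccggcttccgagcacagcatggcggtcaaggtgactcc
SLC22A23 has no GC box in this window at 54.3% G and C, SLC2A1 has 2 at 71%, SLC5A5 has 1 at 63.7% and SLC25A12 has 2 at 75.3%. CACGTG is in none of the 4 windows. The windows of SLC22A23 and SLC25A12 lie inside the spans that GENCODE gives the genes, so that starts further upstream are not covered by them.

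E8 and mTeSR differed from N2B27 in few transporters, and single genes are described below. Media were compared at the same day within Ex1, which asks how the exit from the naive state differs between them. E8 and mTeSR are complete media that replaced N2B27, so that their growth factors and their base nutrients cannot be told apart. E8 differed from N2B27 in 6 members at day 2 (4 higher and 2 lower, 4.26%), beside 4.55% of all genes tested (2.82% higher and 1.72% lower), and in 4 at day 4 (1 higher and 3 lower, 2.84%), beside 2.49% (1.36% and 1.13%). With plain library totals the day 2 split was 2 higher and 3 lower, and with DESeq2 the day 4 split was 0 and 3. At day 6, 6 members differed (all lower in E8, 4.26%), beside 5.28% of all genes (2.31% and 2.97%), and at day 8, 10 (4 higher and 6 lower, 7.09%), beside 7.29% (3.33% and 3.96%). mTeSR differed from N2B27 in 4 members at day 4 (all lower, 2.84%), beside 1.58% (0.81% and 0.768%), in 6 at day 6 (3 each way, 4.26%), beside 2.62% (1.22% and 1.4%), and in 9 at day 8 (4 higher and 5 lower, 6.38%), beside 3.8% (1.65% and 2.15%). It differed from E8 in 8 at day 8 (5 higher and 3 lower, 5.67%), beside 5.31% (2.51% and 2.79%). Among the tested genes with a mean of at least 5 CPM, the shares were 4.1%, 2.32%, 4.48% and 5.34% for E8 at days 2, 4, 6 and 8, 1.48%, 2.34% and 3.22% for mTeSR at days 4, 6 and 8, and 4.42% for mTeSR against E8. The shares of members called between E8 and N2B27 were near those of all genes, and the counts are no result about transporters as a group. Some counts rested on single libraries: that of E8 against N2B27 at day 8 was 5 without E8 replicate 1 and 6 without either N2B27 replicate, that of mTeSR against N2B27 at day 6 was 3 without N2B27 replicate 2, and that of mTeSR against E8 was 4 without E8 replicate 1 or mTeSR replicate 2. Of the 16 members called between media at day 8, 15 are drawn with their errors in the plot of differences at day 8.

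**Figure D4:**
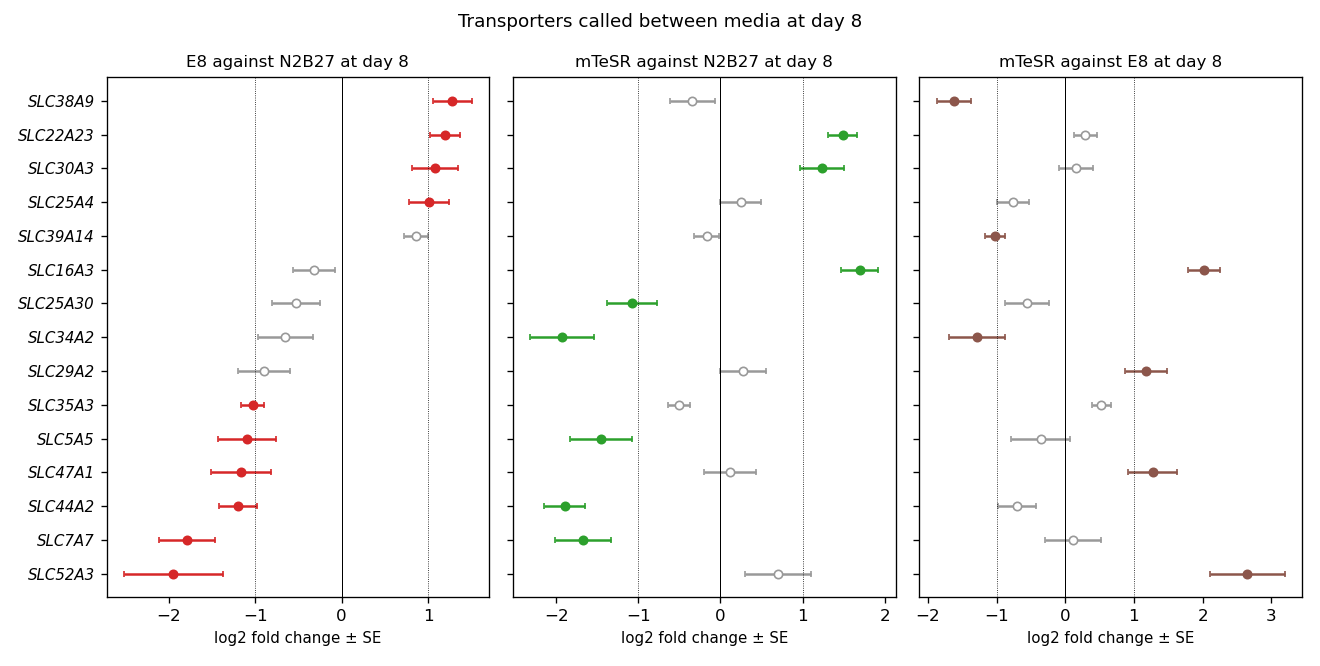
Log2 difference (x axis, point, with SE as bars) between media at day 8 for 15 of the 16 transporters called in at least 1 of the 3 comparisons (y axis); filled points were called, open ones were not, and dotted lines mark 2-fold. SLC16A3 is higher in mTeSR than in N2B27 (1.70) and E8 (2.02), and SLC44A2 and SLC7A7 are lower in E8 and mTeSR than in N2B27.

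SLC16A3 was higher in mTeSR than in both other media at day 8. At day 8 its 84.8 and 109 CPM in mTeSR lay above 27.8 and 34.3 CPM in N2B27 (1.70 ± 0.22, adjusted p = 3.5e-06) and above 22.8 and 24.8 CPM in E8 (2.02 ± 0.23, adjusted p = 1.8e-07). At day 4 the order was another one, with 28.5 and 34.4 CPM in N2B27, 8.76 and 9.01 CPM in E8 and 9.27 and 12.9 CPM in mTeSR, all of Ex1 (E8 against N2B27 -1.76 ± 0.27, adjusted p = 6.0e-05, mTeSR against N2B27 -1.45 ± 0.27, adjusted p = 9.5e-04). These day 4 differences rest on the N2B27 cells of Ex1. The N2B27 libraries of Ex2 held only 8.298 and 9.89 CPM at day 4, a difference between experiments of -1.72 ± 0.28 (adjusted p = 3.4e-04) in the same medium and on the same day. At day 6, N2B27 held 46.4 and 59.4 CPM and E8 19.4 and 13.1 CPM (-1.64 ± 0.25, adjusted p = 1.7e-05).

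TXNIP, which restrains glucose carriers and whose RNA is known to follow glucose, is no solute carrier but was on the list of transporter partners. At day 4 it too was highest in N2B27 of Ex1, at 74.7 and 82.00 CPM, with 13.1 and 16.5 CPM in E8, 47.8 and 34.3 CPM in mTeSR and 19.97 and 20.01 CPM in N2B27 of Ex2. At day 8, in contrast to SLC16A3, it was highest in N2B27, at 175 and 159 CPM, with 122 and 114 CPM in mTeSR and 51.2 and 37.02 CPM in E8. The log2 difference of E8 from N2B27 was -2.34 ± 0.17 (adjusted p = 4.4e-11) at day 4 and -1.84 ± 0.15 (adjusted p = 6.5e-11) at day 8, and that of Ex2 from Ex1 in N2B27 at day 4 was -1.91 ± 0.17 (adjusted p = 7.2e-09). Whether TXNIP and SLC16A3 are linked in these cells was not tested.

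SLC44A2 was lower in E8 and mTeSR than in N2B27. At day 6 it had 28.3 and 28.4 CPM in N2B27, 11.5 and 10.6 CPM in E8 and 12.4 and 12.1 CPM in mTeSR, and at day 8 it had 32.8 and 31.1 CPM in N2B27, 12.9 and 13.7 CPM in E8 and 7.07 and 9.34 CPM in mTeSR. The libraries of N2B27 did not overlap those of the other media on either day. At day 8 the log2 difference from N2B27 was -1.20 ± 0.22 (adjusted p = 2.0e-04) for E8 and -1.90 ± 0.25 (adjusted p = 3.5e-06) for mTeSR, and both calls held without any one of the compared libraries. At day 4 the call for E8 (-1.10) was lost without N2B27 replicate 1 (-0.83, adjusted p = 0.095) or E8 replicate 2 (-0.89, adjusted p = 0.079), and that for mTeSR (-1.22) without N2B27 replicate 1 (-0.95, adjusted p = 0.084) or mTeSR replicate 2 (-1.08, adjusted p = 0.067).

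SLC7A7 also stood higher in N2B27 at day 8. Its N2B27 level was 8.02 and 10.8 CPM at day 4 and 18.9 and 24.5 CPM at day 8, when E8 held 7.85 and 3.77 CPM and mTeSR 5.17 and 7.92 CPM. The log2 difference from N2B27 was -1.79 ± 0.32 (adjusted p = 1.5e-04) for E8 and -1.68 ± 0.34 (adjusted p = 0.001) for mTeSR, and both calls held without any one of the compared libraries. At day 2 SLC7A7 was instead called higher in E8 than in N2B27. That call was lost with plain library totals (0.98) and without N2B27 replicate 1 or either E8 replicate. Hypoblast and trophectoderm markers were also highest in N2B27 at day 8, the 6 trophectoderm markers at 63.7 to 74.1 CPM in all against 22.2 to 24.5 CPM in E8 and 19.3 to 20.4 CPM in mTeSR, with VGLL1 at 3 counts or fewer in each medium. Their part in the day 8 difference of SLC7A7 was not tested.

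SLC52A3 was lower in E8 and mTeSR than in N2B27 at day 6. It had 4.51 and 3.37 CPM in N2B27, 0.957 and 1.13 CPM in E8 (-1.82 ± 0.41, adjusted p = 0.0025) and 1.35 and 0.439 CPM in mTeSR (-2.08 ± 0.42, adjusted p = 0.0016). The E8 call was lost without N2B27 replicate 1 (-1.59, adjusted p = 0.057) and the mTeSR call without mTeSR replicate 2 (-1.5, adjusted p = 0.13). At day 8 the summed rate in N2B27 was 4.25 times that in E8 (17 counts against 4, counting interval 1.39 to 17.4), and that in mTeSR 6.65 times (20 counts against 4, 2.23 to 26.8). SLC5A5 was lower in E8 and mTeSR at day 8, with 9.12 and 9.97 CPM in N2B27 and 2.72 and 3.96 CPM in mTeSR (-1.46 ± 0.38, adjusted p = 0.0098), a call lost without N2B27 replicate 2 (-1.41, adjusted p = 0.065) or mTeSR replicate 1 (-1.21, adjusted p = 0.13). Its N2B27 level at day 4 also differed between experiments, at 27.4 and 26.9 CPM in Ex1 and 12.4 and 12.5 CPM in Ex2 (-1.06 ± 0.25, adjusted p = 0.013), and that call was lost without any one of the 4 libraries, for example without Ex2 replicate 2 (-1.07, adjusted p = 0.14).

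Among amino acid carriers, SLC38A1 was higher in E8 and mTeSR than in N2B27. At day 6 it had 143 and 134 CPM in N2B27, 231 and 267 CPM in E8 and 294 and 292 CPM in mTeSR (1.10 ± 0.09, adjusted p = 1.9e-09 for mTeSR), and at day 2 73.3 and 75.7 CPM in N2B27 and 137 and 141 CPM in E8 (1.02 ± 0.10, adjusted p = 1.9e-07). The day 2 difference fell under 2-fold without N2B27 replicate 1 (0.95, adjusted p = 2.8e-05) and with plain library totals. SLC7A11 (xCT), the cystine-glutamate exchanger, had 123, 163 and 182 CPM in naive cells and in N2B27 lay below that range at day 6 (122 and 99.8 CPM, the lowest mean of the 16 levels) and inside it at day 8 (159 and 172 CPM). In E8 it reached 294 and 277 CPM at day 8 (0.86 ± 0.12, adjusted p = 3.9e-06 against N2B27, under 2-fold), and in mTeSR 219 and 251 CPM at day 6 (1.11 ± 0.12, adjusted p = 5.7e-07), a call lost without N2B27 replicate 2 of day 6 (0.96, adjusted p = 3.0e-04). SLC38A9, the lysosomal arginine sensor, had 34.4 and 22.9 CPM in E8 at day 8 against 13.7 and 11.3 CPM in N2B27 (1.28 ± 0.23, adjusted p = 1.1e-04), and without E8 replicate 1 the difference was 0.94 (adjusted p = 0.019).

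A phosphate carrier and single metal carriers were also called between media at day 8. Of the 22 metal carriers, 1 was called in each comparison (4.55%). The shares of all genes were 7.29% for E8 and 3.8% for mTeSR against N2B27 and 5.31% for mTeSR against E8. Each call given here was lost without 1 library or another. SLC30A3, a carrier that loads zinc into vesicles, had 8.21 and 5.94 CPM in N2B27, 13.1 and 15.3 CPM in E8 (E8 against N2B27 1.08 ± 0.27, adjusted p = 0.004) and 14.1 and 17.8 CPM in mTeSR (mTeSR against N2B27 1.24 ± 0.27, adjusted p = 0.0022). Naive cells held 2.05, 2.96 and 4.94 CPM. It passed the membership threshold only through libraries after exit, so that its rise from naive cells is a description. Without N2B27 replicate 2 both calls were lost, at 0.83 (adjusted p = 0.093) for E8 and 1.00 (adjusted p = 0.074) for mTeSR, as they were without E8 replicate 2 (0.97, adjusted p = 0.029) and mTeSR replicate 2 (1.07, adjusted p = 0.058). SLC34A2 was the phosphate carrier that separated N2B27 from mTeSR (-1.93 ± 0.39, adjusted p = 9.0e-04), a call lost without mTeSR replicate 1 (-1.47, adjusted p = 0.051). SLC39A14 was higher in E8 than in mTeSR, which held 75.3 and 79.8 CPM (mTeSR against E8 -1.03 ± 0.15, adjusted p = 6.8e-06), and fell under 2-fold without replicate 1 of E8 (-0.96, adjusted p = 4.5e-04) or of mTeSR (-0.99, adjusted p = 7.7e-04).

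**Figure D5:**
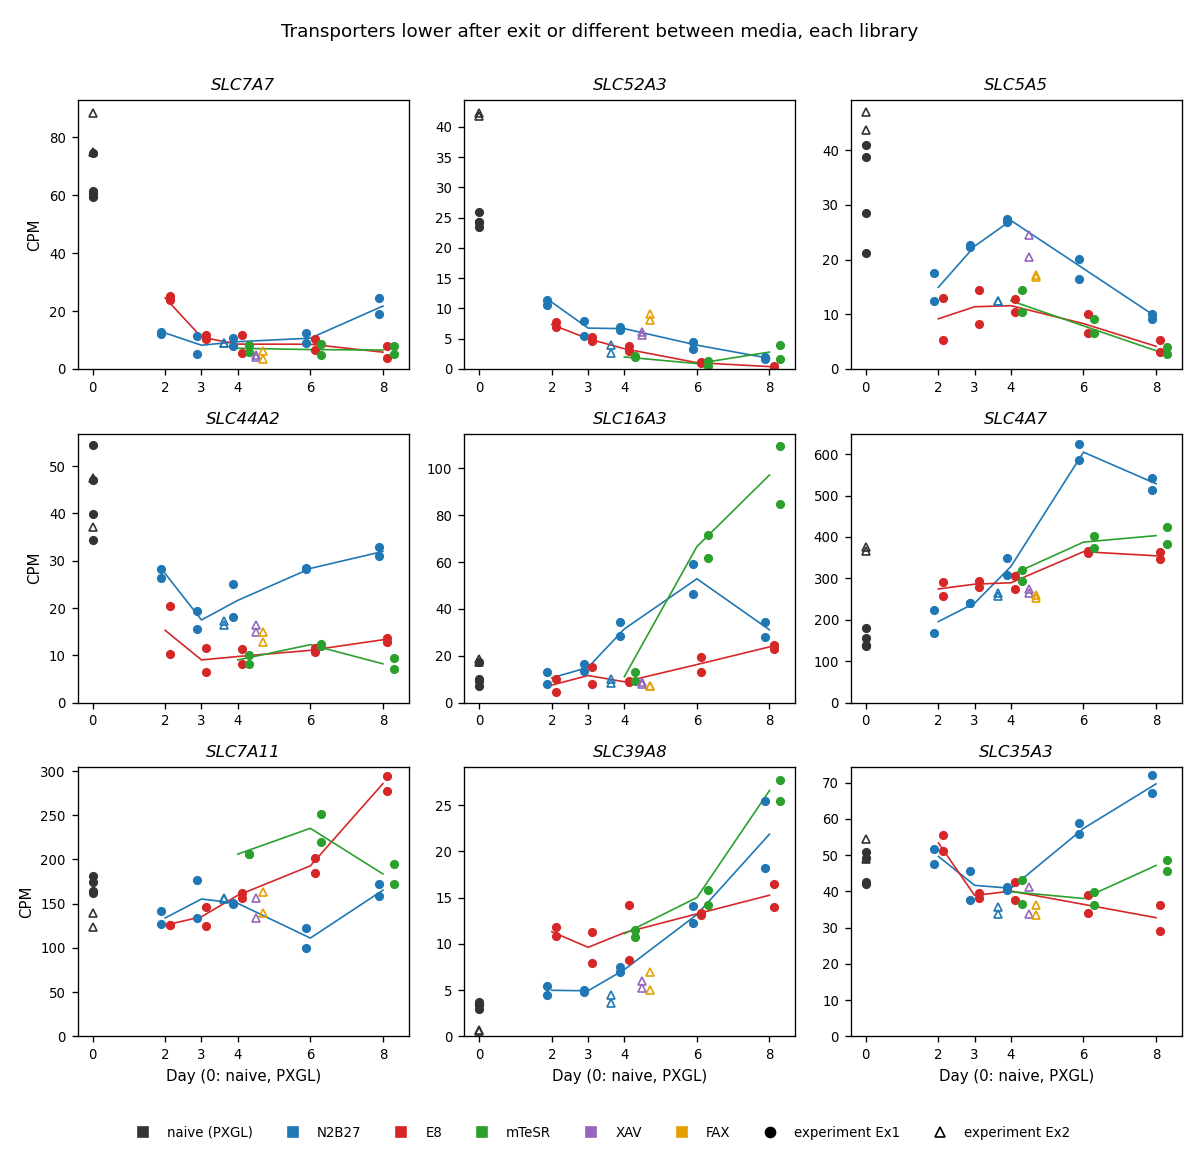
CPM (y axis, from 0) by day (x axis, day 0 is naive) for 9 transporters that fell or differed between media, drawn as in the plot of rising transporters (points for libraries, lines for Ex1 means, open triangles for Ex2). SLC4A7 parts at day 6, with 585 and 625 CPM in N2B27 and 362 and 367 CPM in E8, and SLC16A3 climbs in mTeSR to 84.8 and 109 CPM.

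The courses of E8 and N2B27 over days 2, 3, 4, 6 and 8 were compared in one test of the medium-by-day terms, with no fold threshold. The course differed in 31 of the 141 members, 22% against 11% of all genes tested and 14.3% of those with at least 5 CPM. Without day 2, the day of the E8 libraries with the lowest scaling factors, 14 members were past the threshold. This was 9.93%, beside 5.38% of all genes tested and 6.99% of those with at least 5 CPM. SLC4A7 (NBCn1, chr3:27372721-27484420), a sodium-bicarbonate cotransporter that loads base into cells, had the smallest adjusted p (2.4e-06). Its N2B27 level went from 169 and 223 CPM at day 2 to 585 and 625 CPM at day 6 and 544 and 514 CPM at day 8, while E8 held 291 and 258 CPM at day 2, 362 and 367 CPM at day 6 and 363 and 346 CPM at day 8. The sign of the difference changed from E8 higher at day 2 (0.60 ± 0.11, adjusted p = 5.5e-04) to E8 lower at day 6 (-0.67 ± 0.11, adjusted p = 4.9e-05), neither of them a call.

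SLC7A11 followed with an adjusted p of 6.6e-05 for the course. SLC35A3, which carries UDP-N-acetylglucosamine into the Golgi, was next (1.2e-04), and went up in N2B27 from 40.4 and 41.3 CPM at day 4 to 72.1 and 67.3 CPM at day 8 but down in E8 to 29.2 and 36.3 CPM. Its day 8 difference was -1.03 ± 0.13 (adjusted p = 1.2e-06), and -0.87 (adjusted p = 4.6e-04) without E8 replicate 1 or -0.96 (adjusted p = 1.2e-04) without N2B27 replicate 1. SLC25A36, a mitochondrial pyrimidine nucleotide carrier, had an adjusted p of 1.3e-04 for the course, which was 0.086 without day 2. SLC30A1 (2.2e-04) had 73.1 and 58.4 CPM in N2B27 and 52.5 and 50.2 CPM in E8 at day 2 but 38.5 and 48.7 CPM in N2B27 and 75.9 and 72.4 CPM in E8 at day 8. SLC39A14 (7.5e-04) had 65.9 and 65.9 CPM in N2B27 and 111 and 116 CPM in E8 at day 6. SLC39A8 (0.0019) was higher in E8 at day 2 (10.8 and 11.8 against 5.43 and 4.51 CPM, 1.30 ± 0.27, adjusted p = 0.0015) but not at day 8 (14.02 and 16.5 against 18.2 and 25.5 CPM). SLC16A10 (2.5e-04), SLC7A7 (5.7e-04) and SLC7A3 (0.002) completed the 10 smallest adjusted p.

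Additions to N2B27 in Ex2 changed few transporters at day 4. With XAV, 0 of the 141 were called against N2B27 by edgeR or DESeq2 in the fits of all libraries (beside 0.57% of all genes by edgeR), and 20 had an unadjusted p under 0.05. When edgeR was fitted to the compared libraries alone, 2 were called. Between FAX and XAV 0 were called by either tool (beside 0.012%), with 12 at an unadjusted p under 0.05. FAX against N2B27 gave 2 calls (1.42%, beside 0.336% of all genes). SLC52A3 had 9.095 and 8.16 CPM with FAX, 5.65 and 6.17 CPM with XAV and 3.89 and 2.59 CPM in N2B27 (1.42 ± 0.30, adjusted p = 0.011 for FAX against N2B27). SLC19A3, a thiamine carrier, had 5.05 and 4.196 CPM with FAX, 5.65 and 4.58 CPM with XAV and 11.2 and 9.18 CPM in N2B27 (-1.13 ± 0.28, adjusted p = 0.049). DESeq2 called 0 of the 117 members to which it gave an adjusted p, which did not include these genes. SLC52A3 kept its call only without N2B27 replicate 1, with an adjusted p of 0.32 without N2B27 replicate 2, 0.11 without FAX replicate 1 and 0.096 without FAX replicate 2. SLC19A3 lost its call in each case, with adjusted p from 0.15 (without N2B27 replicate 2) to 0.53 (without FAX replicate 2). With all libraries, RLE scaling, plain library totals, another filter and no filter also lost it, with edgeR adjusted p from 0.052 to 0.15.

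The coating of naive cells moved no transporter past the threshold. Between Geltrex and serum coating in Ex1, 0 of 141 were called by edgeR and 0 of the 91 with an adjusted p by DESeq2 (beside 0.048% of all genes by edgeR), and 19 had an unadjusted p under 0.05. Naive cells on Geltrex differed more between experiments, with 8 members called (5.67%, beside 4.67% of all genes), and since the labels of the Ex2 libraries give both day 0 and day 4, the experiment and the day of culture cannot be told apart here. SLC4A7 had 366 and 376 CPM in Ex2 and 179 and 157 CPM in Ex1 (1.16 ± 0.11, adjusted p = 1.8e-08), and SLC50A1, a sugar efflux carrier, had 31.3 and 41.2 CPM in Ex2 and 13.7 and 15.6 CPM in Ex1 (1.32 ± 0.21, adjusted p = 6.4e-05). Lower in Ex2 were SLC23A2 (-1.05), SLC20A2 (-1.07), SLC1A3 (-1.21), and SLC37A1, SLC6A9 and SLC39A8, of which SLC6A9 was chosen after its values were seen. SLC39A8 had 2 counts in each Ex2 library, and the Ex1 rate was 5.95 times as high (counting interval 2.13 to 23.0). The count was 4 without Ex1 replicate 2 (which lost SLC1A3, SLC20A2 and SLC23A2 among others) and 5 without Ex2 replicate 1 (which lost SLC20A2 among others), and SLC1A3 and SLC23A2 were also lost without Ex2 replicate 2. For SLC4A7, the difference between experiments in naive cells (1.16) was larger than that between E8 and N2B27 at day 6 (-0.67).

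Proteins that work with transporters, and a few transporters with other symbols, were followed in a list of 21 genes, which covers carrier chaperones, the sodium pump, mitochondrial pyruvate carriers and outer membrane channels and regulators of glucose and ion carriers. It also holds the transferrin receptor TFRC, the carriers FLVCR1 and MFSD2A and the phosphate exporter XPR1. At day 8, 7 of the 21 rose and none fell in N2B27 (median log2 fold change 0.22), 6 and none in E8 (0.38) and 7 and none in mTeSR (0.03). MFSD2A, a lysophospholipid carrier, was among the rises in all 3 media, and XPR1 in N2B27 and mTeSR. Of all genes tested, 16.9% rose and 7.03% fell in N2B27, 18.2% and 9.24% in E8 and 16.9% and 8.2% in mTeSR. EMB (embigin), a chaperone that brings lactate carriers to the surface, rose from 0.538, 1.28 and 1.97 CPM in naive cells to 20.3 and 21.7 CPM in N2B27, 28.8 and 33.7 CPM in E8 and 33.2 and 33.1 CPM in mTeSR (4.01 ± 0.26, adjusted p = 7.7e-15, 4.65 ± 0.25, adjusted p = 3.5e-17 and 4.72 ± 0.25, adjusted p = 3.9e-17), while basigin (BSG), which serves the same carriers, had 33.3, 39.1 and 52.4 CPM in naive cells and 27.5 and 30.7 CPM in E8 (-0.52 ± 0.18, adjusted p = 0.014, no call).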

How the data were processed

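RNA of Shef6 cells was made into QuantSeq 3′ libraries and sequenced. The authors ran nf-core/rnaseq with STAR 2.7.10a and Salmon 1.9.0 on hg38 (FastQC 0.11.9 for quality, DESeq2 for their tests; versions per the submitters' processing notes) and deposited one table of estimated counts per gene, in whole numbers. The annotation release is not given in the sources used here, so positions are from GENCODE release 44 on GRCh38, matched by symbol, and promoters from RefSeq on GRCh38.p14. A count at the 3′ end reflects tag number and not gene length, so genes are not ranked by level, and counts of near-identical copies may be divided between them.

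From the counts, CPM (count over library total) was computed, and filterByExpr, TMM and quasi-likelihood tests of edgeR 4.0.16 (R 4.3.3, limma 3.58.1) were run on 16674 genes with Benjamini-Hochberg adjustment. One fit with 16 levels (6 naive libraries and 4 of N2B27 day 4 pooled over experiments) gave the comparisons with naive cells, and one with 19 groups of 2 gave media, coating, experiment and medium-by-day comparisons. Calls needed an adjusted p under 0.05 and, outside the course test, a change over 2-fold. Alternatives were RLE scaling, library totals, another filter and none, DESeq2 1.42.0, naive libraries of the same experiment, compared libraries alone, a replicate block, each library left out, and the membership threshold. Counting intervals are exact, at the 95% level. The scripts were tested on simulated counts for the 16674 genes with known changes put into E8 at day 8.

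Members and lists were chosen with earlier results of these data known. Genes named were drawn from up to 8 called each way per comparison (non-overlapping, at least 10 CPM on the higher side), the 3 highest of each class, the 12 with the widest range, the 10 with the smallest course p, those at the threshold, and 20 fixed by name (SLC40A1 was not a member); not all of these are described, and some are not reported here. SLC2A14, SLC5A6 and SLC6A9 were named after their values were seen, and partners and markers come from lists.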

Additional observations from a re-analysis of the deposited data

Results flagged for a closer look

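Single libraries stood apart from the others of their group, by Dixon's test at the 95% level, in 6 of the 156 groups of 4 to 6 libraries tested, and chance flags about 1 in 20 groups. They were SLC3A2 in naive replicate 1 on Geltrex of Ex1 (130 CPM), SLC39A14 in naive replicate 2 on serum of Ex1 (73.5 CPM), SLC7A1 in N2B27 day 4 replicate 2 of Ex2 (92.0 CPM), SLC37A4 in N2B27 day 4 replicate 2 of Ex1 (47.3 CPM), SLC16A9 in N2B27 day 4 replicate 1 of Ex2 (41.5 CPM) and SLC50A1 in N2B27 day 4 replicate 1 of Ex1 (16.9 CPM). They fall in different genes and libraries.

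The change over days differed between E8 and N2B27 in 31 transporters by the edgeR test of the medium-by-day terms, with n = 2 libraries per medium and day (22%, beside 11% of all genes tested and 14.3% of those with at least 5 CPM), and in 14 without day 2 (9.93%, beside 5.38% and 6.99%). The 10 smallest adjusted p were 2.4e-06 (SLC4A7), 6.6e-05 (SLC7A11), 1.2e-04 (SLC35A3), 1.3e-04 (SLC25A36), 2.2e-04 (SLC30A1), 2.5e-04 (SLC16A10), 5.7e-04 (SLC7A7), 7.5e-04 (SLC39A14), 0.0019 (SLC39A8) and 0.0020 (SLC7A3).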

How the results depend on the processing

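No change named above reversed its sign in any setting except SLC7A5 in E8 at day 8 against naive, never called, which was -0.091 without E8 replicate 2 and 0.384 without replicate 1. Under the settings other than leaving out single libraries, 14 of 1889 gene values lost a call (SLC19A3, SLC38A1 and SLC27A3 in 9 of them), and without single libraries 65 of 1740 did, and the cause was not tested. Counts moved by over 1.5 times for mTeSR against E8 at day 8 (5 with the compared libraries alone), for XAV against N2B27 (2 with the compared libraries alone) and for FAX against N2B27 (1 under RLE scaling, plain totals, the other filter and no filter, 0 under DESeq2). The course count was 14 without day 2, an alternative chosen after seeing the data. A membership threshold of 20 CPM left 87 members.

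Leaving out single libraries gave 24 to 32 calls in N2B27 at day 2, 32 to 35 at day 4 and 42 to 48 at day 8 against naive, 37 to 42, 36 to 41 and 49 to 55 in E8, 37 to 40 and 47 to 51 in mTeSR at days 4 and 8, 32 to 34 with XAV and 31 to 38 with FAX. Between E8 and N2B27 it gave 4 to 9, 3 to 4, 6 to 8 and 5 to 11 at days 2, 4, 6 and 8, between mTeSR and N2B27 3 to 4, 3 to 7 and 6 to 9 at days 4, 6 and 8, between mTeSR and E8 4 to 12, for FAX against N2B27 0 to 1, for the experiments 4 to 7 in naive cells and 1 in N2B27, and for the course 21 to 40. It gave 0 for XAV against N2B27, FAX against XAV and the coating.

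Replicate numbers are shared between groups but did not pair the libraries: over 171 pairs of groups the correlation of deviations ran from -0.35 to 0.26 (median 0.003), and 7 were over 0.1. With the number as a replicate block the count of calls was the same as without it in every comparison, for example 44 for N2B27, 53 for E8 and 49 for mTeSR at day 8 and 31 for the course. At these totals a transporter under 1 CPM rests on a few counts, which limits SLC52A3, SLC28A2, SLC39A8, SLC34A2, SLC30A3 and SLC22A23.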
